A study of Mus musculus with 2 samples.

Results

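Bidirectional coding promoters are short stretches of DNA from which 2 protein-coding genes are transcribed in opposite directions, and in the forebrain of newborn mice 764 of 56461 CTCF sites (1.35%) lay at such places. CTCF recognises a long GC-rich motif through its zinc fingers, blocks contacts between enhancers and promoters, and halts the loop-extruding cohesin ring. It occupies many gene starts as well as distal sites, and the orientation of its motif is known to matter for loops. Divergent gene pairs share a CpG island as a rule, and many of them encode housekeeping proteins of DNA repair, mitochondria and RNA processing.

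The data came from chromatin immunoprecipitation with sequencing (ChIP-seq) against CTCF in forebrain tissue of strain B6NCrl at postnatal age 0 days. There was 1 group with 2 libraries, numbered as biological replicates 1 and 2, and the tissue was pulverised and pooled over several dissections, so no library stands for a single animal and the mix of cell types is unknown. Both libraries cite the same biosample, so their spread may be technical. A site was a peak of the optimal list, the larger of the lists that the authors made with a threshold on the irreproducible discovery rate (IDR), a measure of how well peaks repeat between libraries, on chromosomes 1 to 19 and X of mm10. A site was a member when its summit, the highest point of the peak, was within 1 kb of transcription start sites (TSSs) of protein-coding genes on both strands in the GENCODE M21 basic set. The comparison class was 8496 single-gene coding promoter sites, whose summits had the TSS of exactly 1 coding gene within 1 kb. A further 95 sites had several coding genes on 1 strand, and 47106 had no coding TSS within 1 kb.

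The members belonged to 629 nearest gene pairs and 1276 genes, and 736 of them had 2 coding genes within 1 kb, 27 had 3 and 1 had more. A single site served 507 pairs, while 109 pairs held 2 sites and 13 held 3, so sites of 1 pair share their surroundings. At 609 members the nearest TSSs were head to head, with the genes pointing away from each other, and the distance between them had a median of 197 bp (quartiles 99 and 354, range 3 to 1766). At the other 155 the 5′ ends overlapped, by a median of 247 bp. All tests below are over sites or genes of this 1 group, and their intervals do not cover differences between animals.

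Between the start sites of head-to-head genes, the whole intervening stretch could be well under 100 bases long with a CTCF motif inside. These 4 are among the stronger members whose TSSs are at most 300 bp apart and which hold the motif between them. They are examples and not a full ranking. Each line is the plus strand of mm10 from the base after the minus-strand TSS to the base before the plus-strand TSS, with the match to the 14-base CTCF consensus in capitals.
Nae1/Car7, chr8:104534638-104534699: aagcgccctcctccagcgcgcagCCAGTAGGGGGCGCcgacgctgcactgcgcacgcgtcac
Trove2/Uchl5, chr1:143777069-143777271: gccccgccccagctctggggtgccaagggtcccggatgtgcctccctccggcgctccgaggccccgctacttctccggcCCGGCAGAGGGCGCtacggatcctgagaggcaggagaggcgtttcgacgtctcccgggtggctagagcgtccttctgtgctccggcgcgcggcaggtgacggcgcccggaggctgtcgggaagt
Ruvbl2/Gys1, chr7:45434624-45434843: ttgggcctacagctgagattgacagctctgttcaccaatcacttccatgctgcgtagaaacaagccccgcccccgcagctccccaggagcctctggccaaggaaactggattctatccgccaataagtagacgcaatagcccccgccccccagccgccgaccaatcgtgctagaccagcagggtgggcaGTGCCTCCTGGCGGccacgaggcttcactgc
Nop14/Grk4, chr5:34660149-34660378: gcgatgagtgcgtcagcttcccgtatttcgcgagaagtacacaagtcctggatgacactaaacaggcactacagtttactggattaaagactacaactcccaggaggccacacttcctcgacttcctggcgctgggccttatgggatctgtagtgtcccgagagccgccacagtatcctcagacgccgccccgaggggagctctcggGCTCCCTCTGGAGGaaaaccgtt
The matches at Nae1/Car7 and Trove2/Uchl5 were on the plus strand with 0 and 1 mismatches, and those at Ruvbl2/Gys1 and Nop14/Grk4 on the minus strand with 2 mismatches each.

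Nae1, a subunit of the enzyme that activates NEDD8, and Car7, a carbonic anhydrase, started 63 bp apart, and the summit fell 31 bp from one start and 32 bp from the other. The signal value, the authors' measure of peak strength on a scale that was not stated, was 408 there, with 205 in replicate 1 and 203 in replicate 2. The site between Trove2, an RNA-binding protein gene, and Uchl5, a deubiquitinase of the proteasome, had 371 (190 and 180 in replicates 1 and 2). Ruvbl2, a chromatin remodelling ATPase, and Gys1, the glycogen synthase of muscle, had 370 between their starts (185 and 186), with the summit 23 bp from the Gys1 TSS. The same pair held a weaker member, of 107, inside the 5′ end of Ruvbl2. At Nop14, which acts in ribosome assembly, and Grk4, a receptor kinase, the value was 323 (166 and 154) and the summit lay 15 bp from the Grk4 TSS.

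The 10 strongest members had signal values of 398 to 514, and both replicates were high at each of them, between 200.6 and 275 in replicate 1 and between 179 and 242 in replicate 2. The strongest, at the overlapping 5′ ends of Rab2b, a small GTPase, and Tox4, an HMG box protein, had 514 (chromosome 14, 52279290 to 52279651), with 275 in replicate 1 and 242 in replicate 2. Its summit lay in a UTR, in the 399 bp that both transcription units cover. Wrap53, a telomerase and Cajal body protein, and Trp53, the p53 tumour suppressor, had 490 (260 and 227) on chromosome 11, 69579301 to 69579622. That summit was outside both genes, 144 bp from Wrap53 and 891 bp from the nearest Trp53 TSS. Dtl, an adaptor of a ubiquitin ligase in S phase, and Ints7, an Integrator subunit, had 481 (264 and 220). There the summit was in an intron of Ints7, 366 bp downstream of its TSS. Besides Nae1/Car7, the rest of the 10 were Nfkbil1/Atp6v1g2 with 432, Parp3/Rrp9 with 430, Gemin4/Dbil5 with 426, Cdiptos/Cdipt with 413, Ddias/Prcp with 405 and Trim46/Krtcap2 with 398. Parp3 acts in DNA break repair, Rrp9 is part of the U3 small nucleolar particle, Gemin4 belongs to the SMN complex, Cdipt makes phosphatidylinositol and Trim46 organises axonal microtubules.

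The best match at 6 of these strongest members is shown on its own strand, 30 bases each, since their motifs were not all close to the consensus. Capitals again mark the 14 bases.
Rab2b/Tox4, chr14:52279459-52279488, plus strand: cccaccaaGCTCCAGGGGGCGAcagcgacc
Wrap53/Trp53, chr11:69579482-69579511, plus strand: ctccctggCCTGCAGAGGGCGCataatttc
Dtl/Ints7, chr1:191575984-191576013, minus strand: agctgccgCCACTAGGTGGCGCcactcccc
Parp3/Rrp9, chr9:106476985-106477014, minus strand: tcttatggCCACAAGGTGGAGCcagaggtg
Gemin4/Dbil5, chr11:76217698-76217727, minus strand: agcctaggCCGAGAGGGGGCGCtgtggcta
Trim46/Krtcap2, chr3:89246359-89246388, plus strand: cctccttgCCACAAGAGGGCGCtgcaccca
Dtl/Ints7 had 0 mismatches, Wrap53/Trp53 and Trim46/Krtcap2 1 each and Parp3/Rrp9 2. Rab2b/Tox4, the strongest of all members, and Gemin4/Dbil5 had 3, which was past the limit of 2 used to call a match. Cdiptos/Cdipt was the third of the 10 without a called match.

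Over all members the signal value had a median of 41.4 (quartiles 27.0 and 82.1, range 5.44 to 514). Single-gene promoter sites had a median of 48.9, sites away from coding TSSs 68.9, and the whole list 64.3. Of the 764 members, 260 (34.03%) were above the list's median. The mean log2 signal value was 5.64 at members and 5.84 at single-gene sites, a difference of -0.20 ± 0.041 (SE clustered by chromosome, 95% interval -0.29 to -0.12). This passed the test of a linear model over all sites of both classes (n = 9260, Benjamini-Hochberg adjusted p = 0.000174). Measured at the same sites in each library alone, a check added after the data were seen, replicate 1 gave a difference of -0.21 and replicate 2 one of -0.20.

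The weaker signal went with fewer CTCF motifs. A match with at most 2 mismatches, its centre within 50 bp of the summit, was found at 217 members (28.4%, Wilson 95% interval 25.3 to 31.7%), against 67.3% of all sites in the list. Single-gene sites had a match in 3212 of 8496 cases (37.8%), a difference of -9.40 percentage points (95% interval -12.7 to -5.95, 2-sided Fisher's exact test, adjusted p = 5.53e-07). Sites without a coding TSS within 1 kb had one at 73.3%. Windows of the same length on the 5′-most TSS of all 21755 coding genes held a match in 6.72%, and in 35.5% with 3 mismatches allowed. With the distance from summit to TSS in the model, an alternative added after the data were seen, the difference between the classes was -7.18 points (n = 9260, adjusted p = 0.00121).

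Within each class, sites with closer matches were stronger. The 8 members with 0 mismatches had a median signal value of 311, the 48 with 1 mismatch 131, the 161 with 2 mismatches 59.9, the 304 with 3 mismatches 39.4 and the 209 with 4 mismatches 36.3. Single-gene sites went from 245 with 0 mismatches to 33.97 with 4. Compared within classes of mismatches, members and single-gene sites differed by -0.06 on the log2 scale (95% interval -0.14 to 0.01, n = 9260, adjusted p = 0.143), which did not pass the test. With the distance to the TSS also in the linear model the difference was -0.10 and passed (n = 9260, adjusted p = 0.0147). The direction was not the same in every class. Mean log2 values were lower at members with 1, 2 and 3 mismatches. They were higher with 0 (8.16 against 7.63), 4 (5.27 against 5.19) and 5 or more (4.91 against 4.76). The 217 members with a match had a median of 75.3 and the 3212 single-gene sites with one 93.7, while the medians without a match were 37.8 and 38.3.

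**Figure D1:**
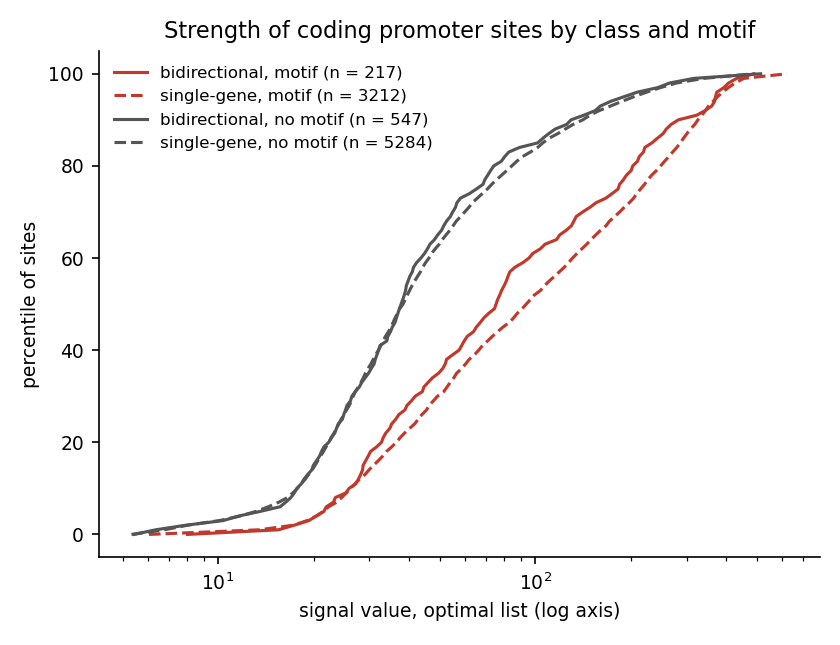
Cumulative distribution of the signal value in the optimal list (log axis) for bidirectional and single-gene coding promoter sites, each split by a CTCF motif match of at most 2 mismatches; the vertical axis is the percentile of sites. The curves of both classes lie close together without a match, and among sites with a match the bidirectional curve lies to the left over most of its range, with a median of 75.3 against 93.7.

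The replicates agreed closely at strong members and less so at weak ones. Members came from a list thresholded on the IDR, and its signal values rest on both libraries. Close replicate values at strong members, here and elsewhere, and their place in the conservative list can in part follow from that selection. They are no independent measure of repeatability. A replicate's value was that of its overlapping peak with the nearest summit, within 100 bp; 35 members had none in replicate 1 and 35 had none in replicate 2. The other members had a median of 24.8 in replicate 1 (range 3.90 to 275) and 21.3 in replicate 2 (range 3.09 to 242). Over the 701 members with both values, the log2 ratio of the replicates, centred on its median over all sites, had an SD of 0.64, and 626 (89.3%) were within 2-fold. Single-gene sites had an SD of 0.59. The SD was 0.34 in the 259 members above the list's median signal and 0.77 in the 442 below it. Of the 764 members, 504 were in that weaker part of the list.

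**Figure D2:**
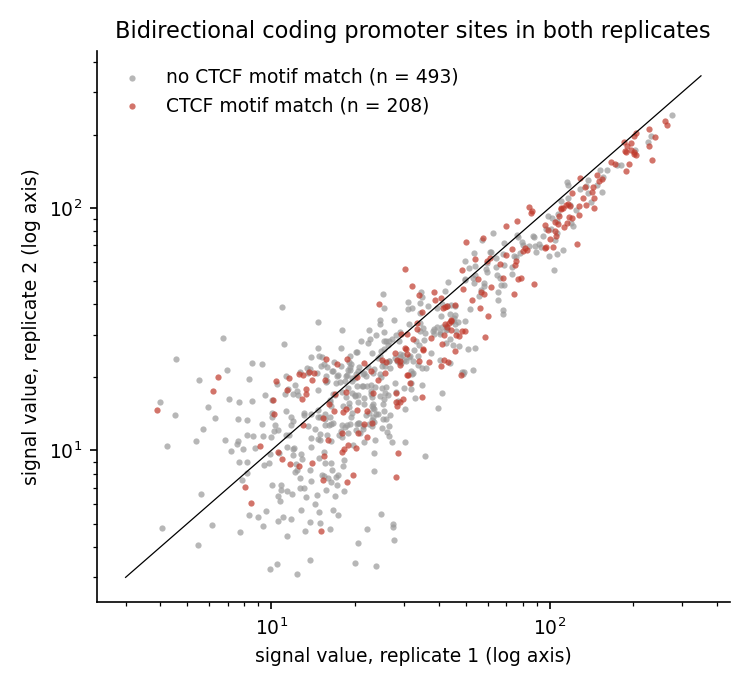
Signal value of bidirectional coding promoter sites in replicate 1 and replicate 2 (both log axes), 1 point per site with a value in both libraries; the line marks equal values. The points close in on a narrow band at high values and spread widely at low values.

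A few members differed strongly between the libraries, which has no test with 1 library on each side. Ino80e, a subunit of the INO80 remodeller, and Hirip3 had 4.54 in replicate 1 but 23.9 in replicate 2, so that the centred log2 ratio was -2.60. Klhdc3/Mea1 had 6.71 and 29.2, and Retreg3/Tubg1, the latter a gene of gamma-tubulin, 3.98 and 15.8. In the other direction Uqcrb, of respiratory complex III, with Gm10767 had 23.7 in replicate 1 but 3.35 in replicate 2, and the ratio was 2.62. Sult2b1/Lmtk3 had 27.6 and 4.26, and Erp44/Invs 19.99 and 3.43. None of these 6 was in the conservative list, and none had a motif match. The weakest members of all were P2rx3/Ssrp1 with 5.44, Polk/Col4a3bp with 5.81 and Kdelc1/Bivm with 5.98, and each of them had a value in only 1 replicate.

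The conservative list, the authors' stricter set, overlapped 614 members (80.4%), against 87.4% of the whole list. The difference from the 82.5% of single-gene sites was -2.17 points (95% interval -5.24 to 0.62, Fisher's exact test, adjusted p = 0.176) and did not pass. Of the members above the list's median signal 99.6% were in the conservative list, and of those below it 70.4%.

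Most summits lay inside 1 of the genes and not between the starts. For head-to-head pairs, 177 of 609 summits (29.1%, Wilson 95% interval 25.6 to 32.8%) were between the TSSs, and the other 432 were downstream of 1 TSS. The stretch between the TSSs was short, with a median of 197 bp, beside the 1 kb window of the rule. These shares were not set against the length of sequence, so they do not give the density of summits per base. Among head-to-head members above the list's median signal, 38.9% were between the TSSs. The summits between the TSSs had a motif match in 36.7% of cases and a median signal of 48.6, and those downstream of a TSS 25.2% and 39.0. At these 177 the nearer TSS was a median of 55 bp away. The nearer TSS was a median of 108 bp away at members and 228 bp at single-gene sites; members by definition have more TSSs in reach, and the part of this was not tested. The summit was upstream of the nearer TSS at 36.5% of members and 53.8% of single-gene sites. At head-to-head members the partner gene begins within that upstream sequence, so the classes do not offer the same room upstream. By annotation, 39.3% of members were in a UTR of a coding transcript, 15.4% in coding sequence, 30.5% in an intron and 14.8% outside the gene models. At single-gene sites these shares were 19.4%, 9.27%, 29.3% and 42.1%. Members have by definition a further coding gene beside the summit, which leaves less sequence outside gene models, and the part of this was not tested.

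**Figure D3:**
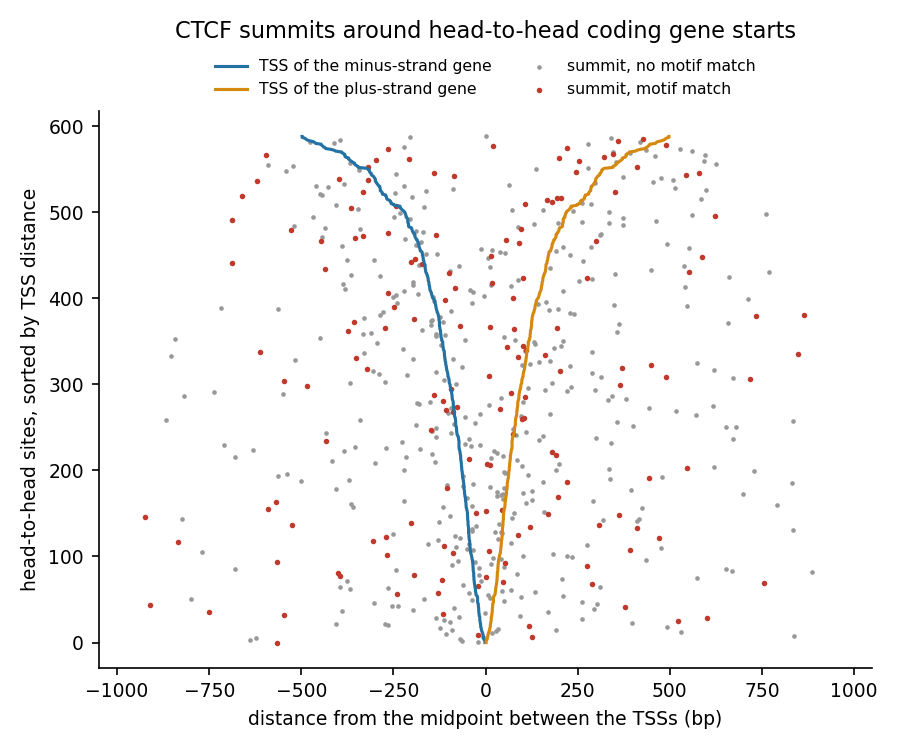
Position of each summit at head-to-head gene pairs with TSSs at most 1000 bp apart, 1 row per site, sorted by the distance between the TSSs; the horizontal axis is the distance in bp from the midpoint between them, and the blue and orange lines are the TSSs of the minus-strand and plus-strand gene. Points between the lines are summits between the starts, and most points lie outside them, inside 1 of the genes.

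The motif share was highest where the starts were farthest apart. A match was found at 27.7% of members with overlapping 5′ ends, 24.7% with starts 1 to 200 bp apart, 27.7% above that and up to 500 bp, 37.97% above that and up to 1000 bp (Wilson 95% interval 28.1 to 49.0%) and 60.0% of the 20 members at more than 1000 bp (38.7 to 78.1%). The members of this last class had a median signal of 177, against 38.9 to 52.5 in the other classes. By the 1 kb rule every one of these 20 summits had to lie between the TSSs. They include Wrap53/Trp53 with 490 and Ddias/Prcp with 405, and the lowest was Hist1h3c/Hist1h2bb with 28.2. Their median GC content was 55.0%, against 63.7 to 65.2% in the other classes. The head-to-head and overlapping members as a whole had matches at 28.6% and 27.7%, a difference of 0.83 points (95% interval -7.44 to 8.27, Fisher's exact test, adjusted p = 0.921). Among members above the list's median signal head-to-head sites had 16.4 points more (Fisher's exact test, adjusted p = 0.0415).

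**Figure D4:**
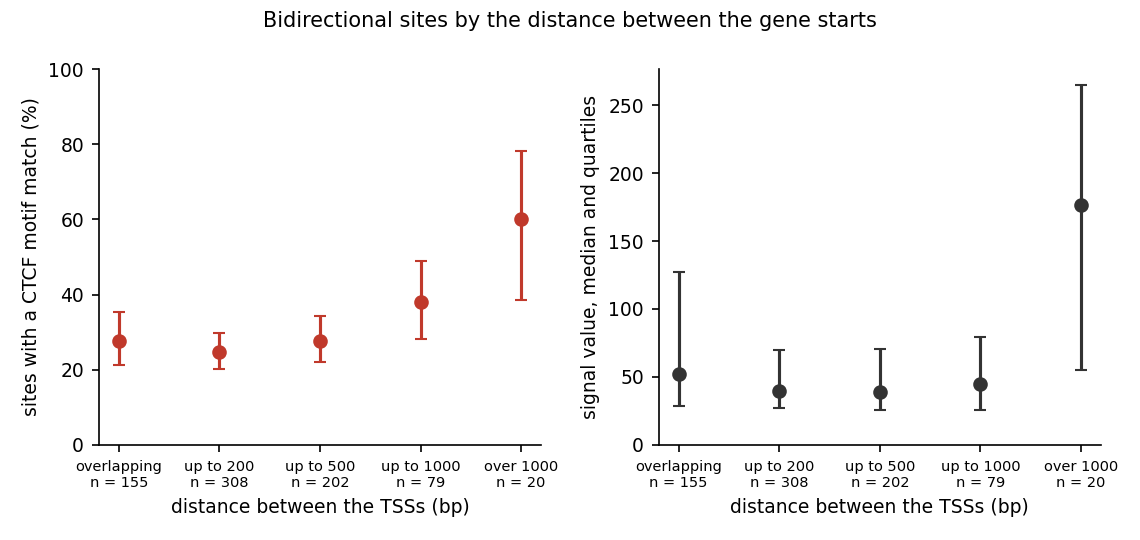
Bidirectional sites by the distance between the TSSs of the gene pair: left, the share with a CTCF motif match and its Wilson 95% interval; right, the median signal value with its quartiles as bars. The 20 sites with starts more than 1000 bp apart have the highest share, 60.0%, and the highest median, 177; the interval of that share, 38.7 to 78.1%, overlaps the 28.1 to 49.0% of the next class, and the intervals of the other 4 classes overlap one another.

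No preferred direction of the motif relative to the nearer gene was detected. It lay on that gene's strand at 104 of the 217 members with a match (47.9%, Wilson 95% interval 41.4 to 54.6%, 2-sided exact binomial test, adjusted p = 0.661). At single-gene sites it lay on the gene's strand in 1803 of 3212 cases (56.1%, unadjusted exact binomial p = 3.84e-12). The difference between the classes, a comparison added after the data were seen, was -8.21 points (95% interval -15.0 to -1.36, unadjusted Fisher's exact p = 0.0198). At members a motif along the nearer gene runs against its partner, and both starts can be almost equally near. The measure is therefore not alike in the classes.

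Of the 10 promoter elements searched as exact strings within 100 bp of the summit, on both strands, 1 differed between the classes. The ETS string CCGGAAG, the core recognised by ETS family activators such as GABPA, was at 107 members (14.01%) and at 6.89% of single-gene sites. The difference was 7.12 points (95% interval 4.77 to 9.81, Fisher's exact test, Benjamini-Hochberg over 10 elements, adjusted p = 5.65e-10). It was at 9.82% of windows of the same length on the 5′-most TSS of all coding genes and at 2.25% of all sites in the list. Members without a CTCF match had it in 88 of 547 cases (16.1%) and members with one in 19 of 217 (8.76%), a difference of -7.33 points (95% interval -11.9 to -2.00) in a comparison added after the data were seen (unadjusted Fisher's exact p = 0.00779).

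As examples, 3 of the stronger members that hold this string and have a best CTCF match of more than 3 mismatches are shown. Each line gives 30 bases around the string, on its own strand, with its 7 bases in capitals.
Cdc123/Nudt5, chr2:5845183-5845212, plus strand: tgcacctcgacCCGGAAGgtaatcatctga
Nfs1/Romo1, chr2:156144162-156144191, plus strand: agcccatgctcCCGGAAGtaactgcgctgt
Ncstn/Copa, chr1:172082773-172082802, plus strand: cgctccagagaCCGGAAGtccttgtccgag
Cdc123, a chaperone of translation initiation factor eIF2, and Nudt5, a nucleotide sugar hydrolase, had a signal value of 269. Their 5′ ends overlap, and the summit lay outside the overlap, 102 bp from the Cdc123 TSS and 232 bp from the Nudt5 TSS. Nfs1, the cysteine desulfurase of iron-sulfur cluster assembly, and Romo1, a mitochondrial membrane protein, had 226. Ncstn, the nicastrin subunit of gamma-secretase, and Copa, a coatomer subunit, had 114 (68.9 in replicate 1 and 48.2 in replicate 2).

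With the distance to the TSS in the model in 50 bp classes, an alternative added after the data were seen, the difference for the ETS string was 4.69 points (95% interval 2.77 to 6.61, linear model clustered by chromosome, n = 9260, adjusted p = 0.000631). For summits within 100 bp of a TSS it was at 20.7% of members and 13.7% of single-gene sites (unadjusted Fisher's exact p = 0.00063). Farther away the shares were 7.81% and 4.201% (unadjusted Fisher's exact p = 0.00219). Around the 5′-most TSS of each gene, the string was at 21.7% of genes with an opposite-strand coding partner and a CTCF site. It was at 19.9% of the partnered genes without a site. Genes without a partner had it at 12.3% with a site and at 6.45% without one.

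The other 9 elements did not pass. The lowest adjusted p-values among them were 0.161 for the YY1 string AAGATGGCG (2.23% of members against 1.26%, Fisher's exact test) and 0.182 for the CTCGCGAG string (1.44% against 0.753%). The NFY string CCAAT was at 18.6% and 18.7%, the SP/KLF string GGGCGGG at 20.03% and 21.4%, the NRF1 string GCATGCGC at 3.01% and 2.22%, the E-box CACGTG at 4.97% and 5.30% and TATAAA at 2.62% and 3.34%. The CRE string TGACGTCA, was at 5 members (Fisher's exact adjusted p = 0.502) and the ZFP143 string ACTACAATT at 3 (adjusted p = 0.451, exact).

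Members lay in DNA richer in CpG than single-gene sites. The ratio of observed to expected CpG within 100 bp of the summit averaged 0.755 against 0.660 (difference 0.095 ± 0.011 SE, clustered linear model, n = 9260, adjusted p = 2.13e-07), and sites without a coding TSS had a median of 0.203. GC content averaged 62.8% and 61.4% (difference 1.36 points, 95% interval 0.91 to 1.80, same model, n = 9260, adjusted p = 8.69e-06). With the distance to the TSS in the model, in 200 bp classes, the CpG difference was 0.046 and passed (n = 9260, adjusted p = 0.000486), while the GC difference was -0.22 points (n = 9260, adjusted p = 0.451).

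From the side of the genes, a coding gene with an opposite-strand coding partner within 1 kb had a CTCF site more often than one without. Of 2304 partnered genes 1336 (57.99%) had a CTCF summit in that range of their own TSS, of 19451 others 6745 (34.7%), and of all coding genes 37.1%. The difference was 23.3 points (95% interval 21.2 to 25.4, Fisher's exact test, adjusted p = 2.47e-101). Both genes of a pair can count the same summit, so genes are not independent and Fisher's test overstates the certainty. A linear model clustered by chromosome gave the same 23.3 points with an adjusted p of 1.93e-09. Partnered genes had GC-richer starts, with a median of 59.4% in the 1001 bp around the 5′-most TSS of each gene against 54.5%. This TSS need not be the one near the partner or the site. With the GC decile in the model the difference was 11.1 points (n = 21755, adjusted p = 3.66e-06), and the odds ratio in a logistic model was 1.61 (95% interval 1.41 to 1.85). The partnered share was the higher one in 10 of 10 GC deciles. It was 66.8% against 58.4% in the ninth decile and 51.1% against 36.8% in the fifth. When only sites above the list's median signal were counted, the difference was 6.98 points (Fisher's exact test, adjusted p = 4.27e-15). Genes with several annotated TSSs have more sequence within reach of both a partner and a site, and the part of this was not tested.

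**Figure D5:**
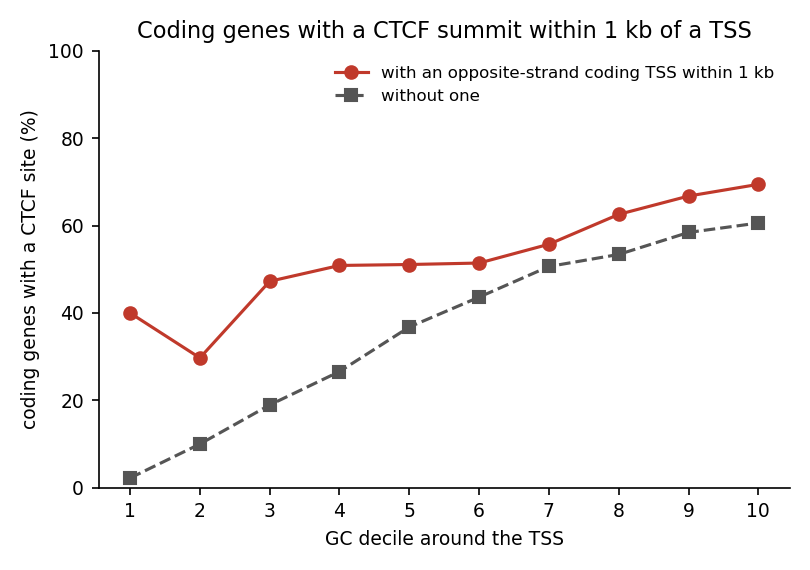
Share of coding genes with an optimal-list CTCF summit within 1 kb of a TSS, by decile of GC content around the 5′-most TSS. Genes with and without an opposite-strand coding TSS within 1 kb are shown apart. The partnered genes lie above the others in 10 of 10 deciles; the lowest decile holds only 5 partnered genes.

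The annotation held 1174 opposite-strand coding pairs with TSSs within 1 kb, and 635 of them (54.1%) had a site near both. The share was 54.8% of 935 head-to-head pairs and 51.5% of 239 overlapping ones (difference 3.29 points, 95% interval -3.74 to 10.4, unadjusted Fisher's exact p = 0.383). On the X chromosome 11 of 31 pairs (35.5%) had one. Autosomes ran from 25 of 57 pairs (43.9%) on chromosome 13 to 15 of 21 pairs (71.4%) on chromosome 18. These are extremes of small counts, and the differences between chromosomes were not tested. A bidirectional site was present at 5.87% of all coding genes.

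Among well-studied divergent pairs, the optimal list had a site near both genes at some and not at others. Of 20 such pairs, 18 had TSSs within 1 kb in the annotation and 8 had a site near both. Over all 1174 opposite-strand coding pairs the share with a site near both was 54.1%. Atm, the DNA damage kinase, and Npat, a histone gene activator, had 70.4 between their starts (31.0 and 41.0). Tmem258/Fen1, the latter a flap endonuclease, had 63.1, and Mutyh, a DNA glycosylase, with Toe1 had 2 sites of 51.4 and 18.5. Ranbp1/Trmt2a had 41.9 and Gart/Son 18.3. None of these named sites had a motif match. The optimal list had no site near either gene of several others, including Hspd1/Hspe1, the mitochondrial chaperonin pair, the collagen pairs Col4a1/Col4a2 and Col4a3/Col4a4 and Prkdc/Mcm4, and at Brca1/Nbr1 a site was near Nbr1 only.

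Housekeeping lists held many partnered genes, and the synapse list almost none. Over all 21755 coding genes 2304 (10.6%) had an opposite-strand coding partner and 1276 (5.87%) a bidirectional site. As a rule such a site requires a partner, so its share in a list depends in part on the number of partnered genes. A share above 5.87% is therefore not by itself an excess of CTCF at the partnered genes of a list. Of all 2304 partnered genes 1336 (57.99%) had any CTCF site within 1 kb. In the lists it was 10 of 22 for DNA repair, 14 of 31 for mitochondrial ribosomal proteins and 8 of 10 for aminoacyl-tRNA synthetases. RNA polymerase II and Mediator had 6 of 9, chaperonins and heat shock 5 of 8, and the synapse list 1 of 1. DNA replication and cell cycle had 3 of 11 and the proteasome 3 of 8. Of 48 DNA repair genes 22 had a partner (45.8%) and 9 a bidirectional site (18.8%), among them Ddb1, the damage-binding subunit of a ubiquitin ligase, at 213. Of 76 genes for mitochondrial ribosomal proteins 31 had a partner and 14 a site. Mrps12, which shares its start region with Sars2, had 272 (155 and 117 in replicates 1 and 2) and Mrps18b 213, while the median over the sites of the list was 33.6. Of 37 aminoacyl-tRNA synthetase genes, which charge tRNAs, 10 had a partner and 8 a site, led by Sars2 at that same 272 and Rars2, opposite the origin recognition gene Orc3, at 95.8. Hars and Hars2, the cytosolic and mitochondrial histidyl synthetases, pointed away from each other and had 74.2 (53.0 and 21.5).

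Among RNA polymerase II and Mediator genes 9 of 42 had a partner and 6 a site, with Med20 at 265 and Med19 at 106. Of 23 genes for chaperonins and heat shock proteins, 8 had a partner and 5 a site, with Dnajc7 at 222 and Cct5 at 194. The DNA replication and cell cycle list had 11 partnered genes of 42 and 3 with a site, among them Orc3 at 95.8 and Mcm7 at 26.1. The proteasome list had 8 of 36 and 3, with Psmc5 at 68.9 and Psma7 at 54.4. Of 39 synapse and neuronal activity genes 1 had a partner, Nlgn2, which encodes the adhesion protein of inhibitory synapses. It had a bidirectional site of 61.0 (32.3 in replicate 1 and 28.7 in replicate 2), 72 bp upstream of its TSS and with a motif match. Any CTCF site within 1 kb was present at 22 of the 39 synapse genes and at 26 of the 48 DNA repair genes. Across the 8 lists this share ran from 50% to 62.2%, beside 37.1% of all coding genes. These are counts without a test, and members of different lists can share a site, as Mrps12 and Sars2 do.

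Some strong members had no close CTCF match. With more than 3 mismatches the highest were Timm21/Fbxo15 with 377 (203 and 173 in replicates 1 and 2), Cdc123/Nudt5 with 269 (148 and 124), Dusp12/Gm26620 with 254 (137 and 115), Gm9955/Fhod3 with 251 (129 and 120) and Nfs1/Romo1 with 226 (117 and 110). Timm21 encodes a mitochondrial import protein, and its site had the summit 1 bp inside the 5′ end of Fbxo15. The replicates were close at all 5, and all 5 were in the conservative list. Of the 13 pairs with 3 members each, 2 are given here, Aldh16a1/Pih1d1, with members of 194, 90.7 and 65.3, and 1700056E22Rik/Dusp10, with 58.3, 23.2 and 41.2. The 90.7 site at Aldh16a1/Pih1d1 had no overlapping peak in replicate 2.

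The share of sites with a close neighbour was not shown to differ between the classes. Another summit of the optimal list was within 1 kb of 248 members (32.5%) and of 29.8% of single-gene sites (difference 2.67 points, 95% interval -0.70 to 6.20, unadjusted Fisher's exact p = 0.127). Within 10 kb the shares were 68.7% and 71.1% (difference -2.41 points, 95% interval -5.92 to 0.92, unadjusted Fisher's exact p = 0.17). At the edge of the rule, the 41 members whose farther TSS was more than 900 bp away had a median signal of 75.3, and the 34 sites just outside, at more than 1000 and up to 1100 bp, 49.2.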

How the data were processed

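CTCF ChIP-seq of 1 group with 2 libraries was analysed from peak lists on mm10; the sources used here give no aligner, peak caller or sequencing depth. No depth therefore stands behind a value. The deposited lists gave a signal value per peak, a score whose scale was not stated, −log10 of a q-value, an IDR score from the authors and the offset of the summit from the peak start. Each of the deposited replicate and pooled lists held exactly 300000 peaks, and peaks were called with a control file, per the file headers. The optimal list held 56470 peaks, 56461 of them on chromosomes 1 to 19 and X.

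TSSs were the 5′ ends of GENCODE M21 basic transcripts of protein-coding genes, and sequence was GRCm38. The 14-base CTCF consensus of the literature was matched on either strand, allowing 2 mismatches. A replicate's value needed a summit within 100 bp, a limit set after the data were seen. Shares were compared with 2-sided Fisher's exact tests and Newcombe intervals, and means with linear models whose errors were clustered by chromosome. P-values were adjusted by Benjamini-Hochberg over 9 main tests, or over 10 elements, at 0.05; p-values called unadjusted come from additional comparisons. Named are the 10 strongest sites, the 5 strongest with more than 3 mismatches, the 3 weakest, the 3 most unequal between replicates in each direction, 20 well-studied pairs, up to 2 genes of each of 8 lists, 2 of the 13 pairs tied for the most summits and the sites whose sequence is shown; a few other members (Hars/Hars2, Mcm7, Hist1h3c/Hist1h2bb) were chosen after their values were seen. Some items this rule selects are not reported here. The members and lists were chosen with earlier results of these data known. Alternatives were the conservative list, stronger sites, each replicate alone, a 500 bp window, other mismatch limits, 1 site per pair and added covariates. For each replicate alone, its strongest peaks were taken, as many as the optimal list holds. The statistics were tested on simulated data. Python 3.11.15, numpy 2.4.6, pandas 2.3.3, scipy 1.17.1, statsmodels 0.14.6, samtools 1.23.1 and matplotlib 3.10.9 were used.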

Additional observations from a re-analysis of the deposited data

Results flagged for a closer look

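The pooled list, called on both libraries together and not used in the comparisons above, held further peaks at these promoters. Of the 539 opposite-strand coding pairs without an optimal-list site near both TSSs, 309 (57.3%, Wilson 95% interval 53.1 to 61.4%) had a pooled-list summit with a q-value of at most 0.05 near both. The pooled list is long, with 102046 peaks at this q-value. Of the 968 partnered coding genes without an optimal-list site within 1 kb of a TSS, 583 (60.2%) had a pooled-list summit there, beside 28.5% of all 13674 coding genes without such a site and 26.1% of the 12706 without a partner. This difference was not tested, and partnered genes have GC-richer starts. There are no control samples in these files to set beside this share.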

How the results depend on the processing

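No paired analysis was possible because the study has 1 group and no comparison between groups. Of 99 alternative values of the main results, 86 kept their direction, their side of the threshold and, for counts, their size. Among them, the lower motif share, the lower log2 signal value, the higher CpG ratio and the higher share of partnered genes kept direction and call under each alternative run. The number of members was 501 with TSSs within 500 bp and 260 above the list's median signal, and 773 and 780 without replicate 1 and replicate 2. The lists without a replicate were cut to the length of the optimal list, so their similar counts say little about repeatability. The log2 difference at equal motif class was -0.10 and passed with TSS distance as a covariate. The share between TSSs was 38.9% among stronger sites. The motif lay on the nearer gene's strand at 51.2% of stronger members and at 55.4% with at most 1 mismatch, neither called. The GC difference was -0.22 at equal TSS distance. The head-to-head minus overlapping motif share was 16.4 among stronger sites, and -1.90 with TSSs within 500 bp, -0.52 with at most 1 mismatch and -5.91 with at most 3; it ranged from -0.94 without replicate 1 to 0.81 without replicate 2. Without replicate 2, 2 elements passed, ETS and the CTCGCGAG string (1.11 points). Uncalled elements changed sign: CRE ranged from -0.23 to 0.10 and E-box from -0.40 to 0.54 without a replicate, the positive value being without replicate 1, NFY was 0.41 in the conservative list and 0.23 among stronger sites, and TATAAA 0.57 among stronger sites. The cause was not tested for any of these. With the read depth unknown and 2 libraries from 1 biosample, sites and pairs without a peak cannot be called unoccupied.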
